A study of Homo sapiens with 6 samples.

Results

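The genes described are ASNS, PHGDH, PSAT1, PSPH, SHMT2, MTHFD2, MTHFD1L, PCK2, SESN2 and STC2, effectors of the integrated stress response that make serine, folate-bound carbon units and asparagine or limit stress. They were chosen by symbol, and all 10 were found among the 26364 genes of the deposited count table. The 6 sequenced libraries were made from HEK293T, a line derived from human embryonic kidney, and in every one the cells had received 200 nM okadaic acid for 3 h. This compound inhibits the phosphatases that dephosphorylate UPF1, the RNA helicase of nonsense-mediated mRNA decay (NMD). The p-UPF1 IP group (replicates 3, 6 and 9) holds RNA immunoprecipitated with an antibody against phosphorylated UPF1, and the pre-IP group (replicates 1, 4 and 7) is named by its sample titles. Rabbit IgG is given as the antibody of the pre-IP group, and the protocol describes a parallel IP with it as negative control, so the control can be read as RNA taken before the IP or as RNA of a mock IP. No cells without okadaic acid and none lacking ATF4 were analysed here, so induction of these genes was not measured. As in any bulk measurement, fewer cells carrying an RNA and less of it per cell cannot be told apart. The comparison asks which of their RNA fragments were enriched with p-UPF1.

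As background, stress kinases that phosphorylate the initiation factor eIF2 lower general translation and raise translation of ATF4, a transcription factor. ATF4 activates genes for amino acid synthesis, import and redox balance through composite C/EBP-ATF elements near their promoters. Several mRNAs of this response are known NMD substrates, and phosphorylation of eIF2 is itself known to inhibit NMD.

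The ATF4 element was searched in the RefSeq promoter windows (GRCh38.p14) to show which of the genes carry its core next to their annotated starts. The letters searched were TGATGNAA, on both strands, in the 250 bases before each start. Of the 10 genes, 8 had a window (SHMT2 and PSPH had none), and 2 of these held the letters, against 3.89% of the 27305 genes with a window. Of the 21 other ATF4-activated genes with a window, 6 held them, and of the 16 other serine, glycine and folate genes, 0. A match describes letters in a window and does not show binding. The matches are given with 30 bases each in the direction of the gene, with the core in capitals. The ASNS match lies at chr7:97872458-97872487 on the minus strand, 60 bases before the start, and the MTHFD1L match at chr6:150866346-150866375 on the plus strand, 121 or 82 bases before 2 annotated starts.
ASNS: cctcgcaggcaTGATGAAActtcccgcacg
MTHFD1L: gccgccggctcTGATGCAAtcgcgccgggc

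Libraries held 905926 to 2057647 counts in p-UPF1 IP and 600244 to 1179369 in pre-IP, and the 10 genes together had 12284 and 2519 counts. Protein-coding genes took 56.1% to 74.9% of counts in p-UPF1 IP and 24.1% to 35.9% in pre-IP, so a value relative to all counts is higher for most mRNAs in p-UPF1 IP. Levels are therefore given as CPM (counts scaled to library size) after TMM scaling, which sets the libraries level over most genes. The median log2 fold change of the 8070 genes tested was 0.10 on this scale and 1.63 with library totals alone. In pre-IP, replicate 4 was the shallowest library and had the highest TMM-scaled CPM of the group for 9 of the 10 genes (SHMT2 was the exception). Its part in each result was measured by leaving it out. Of 4 genes known from HEK293 cells, NEFL, NEFM and INA had 327, 87 and 401 counts in p-UPF1 IP and 55, 34 and 23 in pre-IP, and PAX2 had 9 and 0. Of 17 markers of blood, liver, fibroblast, muscle and epidermis, 13 had no count in any library, and the list held 24 counts in p-UPF1 IP and 7 in pre-IP. No label says that replicates are separate cultures, so the p-values rest on a spread among these libraries that may be technical only.

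The 10 genes did not move together. STC2, SESN2 and PCK2 rose in p-UPF1 IP, by 2.03, 1.44 and 1.23 on the log2 scale, MTHFD2 fell by 1.57, and the other 6 did not pass the test (edgeR quasi-likelihood F-test, Benjamini-Hochberg 0.05 over all tested genes). In simulated data this test recovered 10.3% of the genes set to change 2-fold, so a gene not called may still have changed by that much. Fewer genes were called there (121 of 7510) than in the measured libraries (1591 of 8070). The adjusted threshold was therefore stricter in the simulation, and the recovered share need not hold for these libraries. Over all tested genes 8.81% were called higher and 10.9% lower, 19.7% in all. The median log2 fold change of the 10 genes was 0.53, beside 0.10 over all tested genes. All 10 passed the filter on low counts in each of the 6 libraries. The groups did not overlap for 5 of the 10 genes, the 4 called ones and MTHFD1L, beside 39.7% of all tested genes. Of these 5, 4 were higher in p-UPF1 IP, beside 21.9% of all tested genes, and 1 was lower, beside 17.7%. Calls depend on the scaling: with library totals alone 8 of the 10 rose and 0 fell, in a table with 4874 genes higher and 156 lower, against 711 and 880 with TMM. Set against the median of all tested genes, 6 of the 10 lay above it and 4 below it under TMM, RLE, upper-quartile scaling and library totals alike. A change of scaling shifts all genes by nearly the same amount, so this agreement largely follows from the method.

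**Figure D1:**
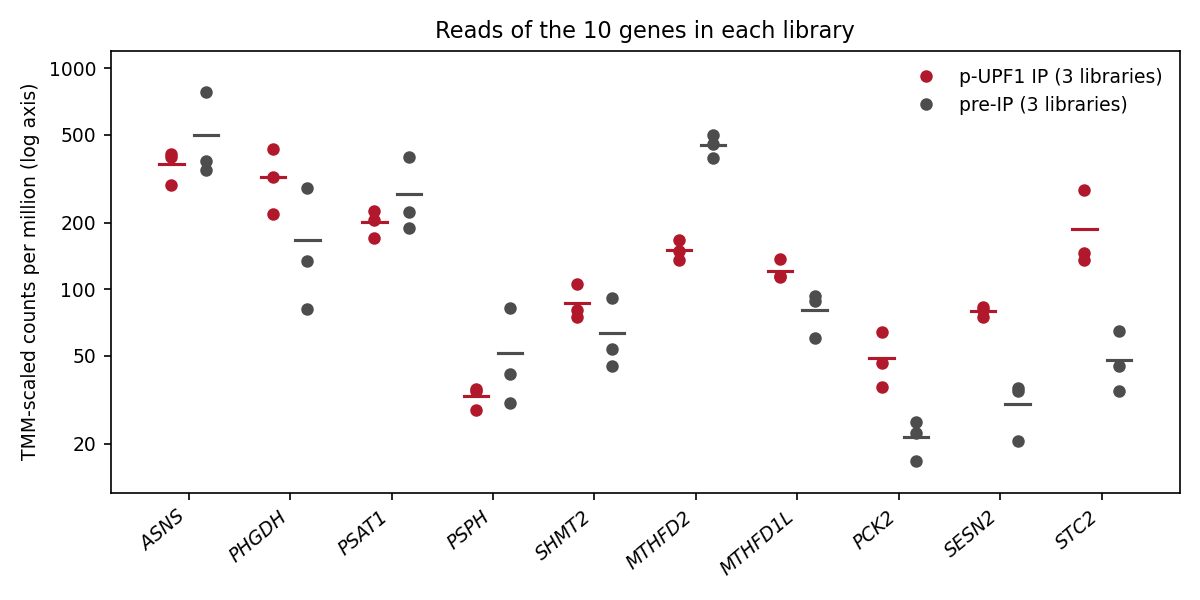
TMM-scaled CPM of the 10 genes (log axis) in the 3 p-UPF1 IP libraries (red, left of each pair) and the 3 pre-IP libraries (grey), each point 1 library and each bar a group mean. STC2, SESN2, PCK2 and MTHFD1L had every p-UPF1 IP library above every pre-IP library, MTHFD2 had every one below, and the other 5 genes overlapped.

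Serine is made from a glycolytic intermediate by PHGDH, PSAT1 and PSPH in turn. PHGDH, the dehydrogenase that opens the pathway, had 220, 430 and 322 CPM in p-UPF1 IP replicates 3, 6 and 9, against 134, 286 and 81.2 CPM in pre-IP replicates 1, 4 and 7. The groups overlapped through pre-IP replicate 4, which lay above p-UPF1 IP replicate 3. The log2 fold change of PHGDH was 0.995 (SE 0.40, edgeR adjusted p = 0.0898). It passed the test in 4 of 17 alternatives, among them the fit without pre-IP replicate 4 (1.61, adjusted p = 0.00882). Its lowest log2 fold change among the 17 was 0.35, with the general trend on GC content removed (edgeR adjusted p = 0.572). PSAT1, the aminotransferase of the next step, had 170, 225 and 206 CPM in p-UPF1 IP and 224, 397 and 190 CPM in pre-IP. PSPH, the phosphatase that releases serine, had 28.4, 35.3 and 34.7 CPM in p-UPF1 IP and 30.7, 82.4 and 41.5 CPM in pre-IP. Both overlapped between groups, and pre-IP replicate 4 held the highest value of each. Their log2 fold changes were -0.41 (SE 0.32, edgeR adjusted p = 0.395) and -0.56 (SE 0.41, adjusted p = 0.356), and near 0 without that library (-0.0086 and -0.09).

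In mitochondria SHMT2 moves a carbon unit from serine to tetrahydrofolate, MTHFD2 oxidises the product and MTHFD1L releases formate from it. MTHFD2 had 136, 167 and 149 CPM in p-UPF1 IP, against 454, 498 and 394 CPM in pre-IP. Every pre-IP library lay above every p-UPF1 IP library, and the values within a group were close. MTHFD2 fell by 1.57 (SE 0.30, edgeR adjusted p = 0.0016), a fold of 0.336. It was called in 16 of 17 alternatives and in all 6 that leave out a library (highest adjusted p = 0.0182). With library totals alone its log2 fold change was -0.0056 (adjusted p = 0.988), which is 1.64 below the median of all genes on that scale. SHMT2 had 80.9, 75.0 and 105 CPM in p-UPF1 IP and 44.8, 53.7 and 91.6 CPM in pre-IP, with pre-IP replicate 7 inside the p-UPF1 IP range. Its log2 fold change was 0.45 (SE 0.34, adjusted p = 0.379). MTHFD1L had 113, 115 and 136 CPM in p-UPF1 IP and 88.3, 93.1 and 60.5 CPM in pre-IP. The groups did not overlap, but the log2 fold change of 0.60 (SE 0.30, edgeR adjusted p = 0.165) did not pass the test.

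ASNS makes asparagine from aspartate and glutamine and is a standard readout of ATF4 activity. It had 296, 397 and 411 CPM in p-UPF1 IP and 381, 777 and 346 CPM in pre-IP. The groups overlapped, and pre-IP replicate 4 was the highest of all 6 libraries. The log2 fold change of ASNS was -0.43 (SE 0.36, edgeR adjusted p = 0.429). When pre-IP replicate 4 was left out it was 0.056 (adjusted p = 0.924), so the sign of this value depends on that library. Relative to the median of all tested genes ASNS lay at -0.54 with TMM and at -0.42 with library totals alone.

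PCK2, SESN2 and STC2 act beside these pathways. STC2, a secreted glycoprotein induced by stress of the endoplasmic reticulum, had 135, 281 and 147 CPM in p-UPF1 IP and 34.5, 64.5 and 44.9 CPM in pre-IP. The groups did not overlap, and p-UPF1 IP replicate 6 stood above the other 2. STC2 rose by 2.03 (SE 0.37, edgeR adjusted p = 0.00125), a fold of 4.08, and was called in 17 of 17 alternatives (log2 fold changes of 1.48 to 3.56). SESN2, a leucine-binding inhibitor of the growth kinase mTOR, had 74.8, 80.8 and 82.8 CPM in p-UPF1 IP and 20.5, 35.8 and 34.6 CPM in pre-IP. The p-UPF1 IP libraries were close to each other (79.5 ± 4.14 CPM, SD, n = 3) and lay above all of pre-IP (30.3 ± 8.52 CPM). SESN2 rose by 1.44 (SE 0.36, edgeR adjusted p = 0.0093), a fold of 2.71, and was called in all 6 alternatives that leave out a library. PCK2, the mitochondrial enzyme that makes phosphoenolpyruvate from oxaloacetate, had 46.4, 36.0 and 64.3 CPM in p-UPF1 IP and 16.6, 25.1 and 22.5 CPM in pre-IP. The groups did not overlap, but the pre-IP values rest on 13, 7 and 13 counts. PCK2 rose by 1.23 (SE 0.42, edgeR adjusted p = 0.0486), and this call, just inside the threshold, held in 6 of 17 alternatives and in 1 of the 6 that leave out a library (leaving out p-UPF1 IP replicate 9 gave the highest adjusted p, 0.238).

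Per kilobase of transcript, so that genes can be set side by side, the order of levels differed between the groups. ASNS was at 156 CPM per kilobase in p-UPF1 IP and 213 in pre-IP, the highest of the 10 genes in each group. PHGDH was next in p-UPF1 IP with 125, against 64.7 in pre-IP, and PSAT1 had 91.7 and 124. MTHFD2 had 33.8 CPM per kilobase in p-UPF1 IP, close to STC2 (35.1), SHMT2 (34.3) and MTHFD1L (33.7). In pre-IP MTHFD2 had 101, SHMT2 25.0 and MTHFD1L 22.4, and STC2, SESN2 and PCK2 were the lowest with 8.96, 8.77 and 9.07. The lowest in p-UPF1 IP was PSPH with 15.1, against 23.7 in pre-IP.

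The share of each gene among the reads of the 10 genes does not depend on library scaling. MTHFD2 took 9.49% ± 0.828 (SD, n = 3) of these reads in p-UPF1 IP and 27.8% ± 5.52 in pre-IP. STC2 took 11.5% ± 3.36 in p-UPF1 IP and 2.88% ± 0.517 in pre-IP, PHGDH 19.9% ± 3.26 and 9.33% ± 3.08, and SESN2 5.04% ± 0.683 and 1.88% ± 0.67. MTHFD2 ranked 5 of 10 in p-UPF1 IP and 2 of 10 in pre-IP, and STC2 ranked 4 and 8. The groups did not overlap for 8 of the 10 shares, all except PSPH and SHMT2. Like MTHFD2, ASNS (23.0% in p-UPF1 IP and 28.9% in pre-IP) and PSAT1 (12.6% and 15.8%) were lower in p-UPF1 IP. PHGDH, MTHFD1L, PCK2, SESN2 and STC2 were higher. Such shares were not computed for other genes, so this count has no background beside it. Shares add up to a whole, so a lower share of any gene raises those of the others, and the shares were not tested. The 10 genes together took 0.330%, 0.490% and 0.437% of the protein-coding counts in p-UPF1 IP and 0.264%, 0.446% and 0.235% in pre-IP, and the groups overlapped through pre-IP replicate 4.

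**Figure D2:**
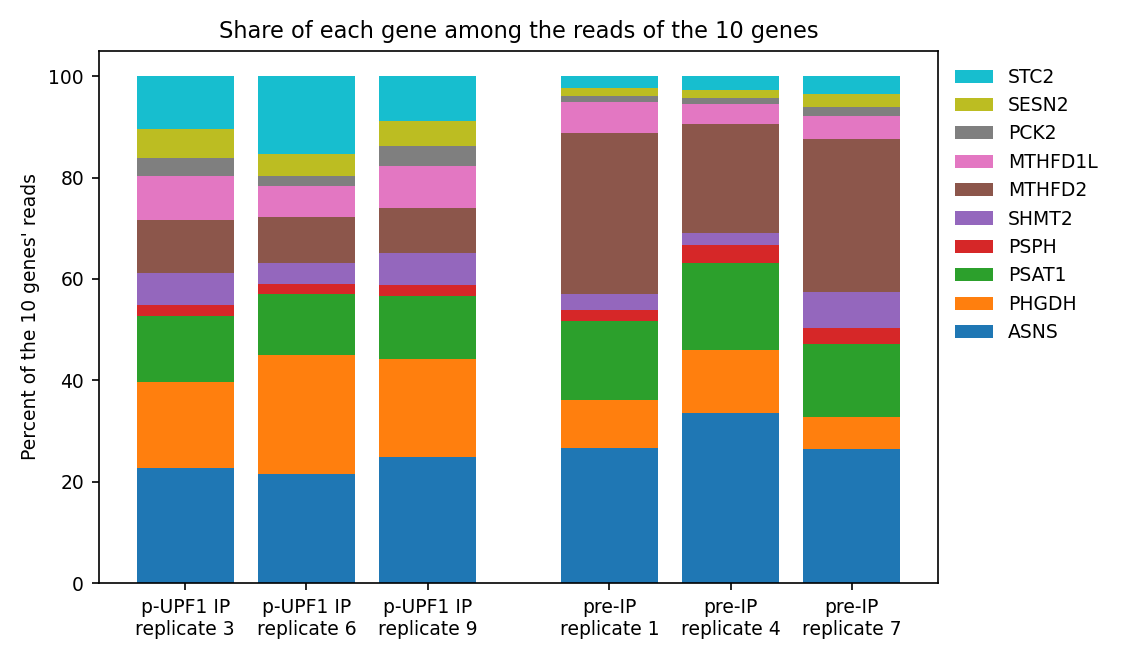
Share of each of the 10 genes in their summed reads (percent, stacked bars from 0), for the 3 p-UPF1 IP libraries on the left and the 3 pre-IP libraries on the right. The MTHFD2 segment was 8.97% to 10.4% in p-UPF1 IP and 21.5% to 31.8% in pre-IP, and the STC2 segment 8.84% to 15.3% and 2.42% to 3.44%.

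Ratios of a gene to its paralogue within a library are likewise free of scaling. Of 9 pairs, 7 had at least 10 counts of each gene over the 6 libraries and were compared with two-sided exact permutation tests, which cannot give a p below 0.1 with 3 libraries against 3. MTHFD1, the cytosolic enzyme that joins the activities of MTHFD2 and MTHFD1L in a single protein, had 2138 counts in p-UPF1 IP and 277 in pre-IP. The log2 ratio of MTHFD2 to MTHFD1 was -1.004, -0.68 and -0.94 in p-UPF1 IP and 1.54, 1.11 and 1.32 in pre-IP. MTHFD2 had fewer counts than MTHFD1 in every p-UPF1 IP library and more in every pre-IP library (a difference of -2.20, exact permutation p = 0.1, Benjamini-Hochberg 0.7 over the 7 pairs). MTHFD1L to MTHFD1 gave -1.27, -1.22 and -1.06 in p-UPF1 IP and -0.82, -1.28 and -1.37 in pre-IP, a difference of -0.028 (exact permutation p = 1) that turned positive when pre-IP replicate 1 (0.14) was left out, or p-UPF1 IP replicate 3 (0.014). The ratio of SHMT2 to SHMT1, its cytosolic counterpart, differed by 0.62 (exact p = 0.4). SESN2 to SESN1 and SESN2 to SESN3, the other sestrins, differed by 0.50 and 0.98 (exact p = 0.8 and 0.3), and ASNS to ASNSD1, a protein with an ASNS-like domain, by -1.36 (exact p = 0.8). ASNSD1 had 0 counts in pre-IP replicate 4, and without that library the last difference was 0.33. MTHFD2 to MTHFD2L differed by 0.70 (exact p = 0.8) on 8 and 6 counts of MTHFD2L. PCK1, the cytosolic counterpart of PCK2, had 0 counts in p-UPF1 IP and 1 in pre-IP, and STC1 had 2 and 1, so neither was compared.

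The transcripts of the 10 genes were set beside 7679 tested protein-coding genes with GENCODE features. Their median length was 2561 bases, against 3600 over the tested genes, and their median GC content 51.8% against 47.4%. An annotated transcript of the NMD class was found for 7 of the 10 genes (70.0%), beside 46.2% of the tested genes. The 3 without such a transcript were PSAT1, SESN2 and STC2, of which SESN2 and STC2 rose. Among all tested protein-coding genes 9.27% of those with an NMD-class transcript were called higher and 8.96% of those without. In the annotated transcript used for each gene, MTHFD2 and STC2 have the longest 3' UTRs of the 10 (3323 and 3134 bases). They lay at opposite ends of the fold changes. Across the 10 genes the log2 fold change had a Spearman correlation of 0.75 with GC content and 0.43 with length, beside 0.19 and 0.35 across the 7679 genes. These describe genes counted in the same libraries and are not tests.

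The general trends bear on the calls. SESN2 and PCK2 are GC-rich (59.5% and 59.9%), and genes of that GC content had fitted log2 fold changes of 0.66 and 0.68. With the GC trend removed SESN2 had 0.71 (edgeR adjusted p = 0.194) and PCK2 0.49 (adjusted p = 0.478), and with the length trend removed 1.08 (0.0568) and 1.10 (0.098). STC2 and MTHFD2 kept their calls in both fits, with log2 fold changes of 1.48 and -2.05 when the length trend was removed and 1.76 and -1.63 when the GC trend was removed. The direction of SHMT2 turned with the GC trend removed (-0.043, adjusted p = 0.952).

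**Figure D3:**
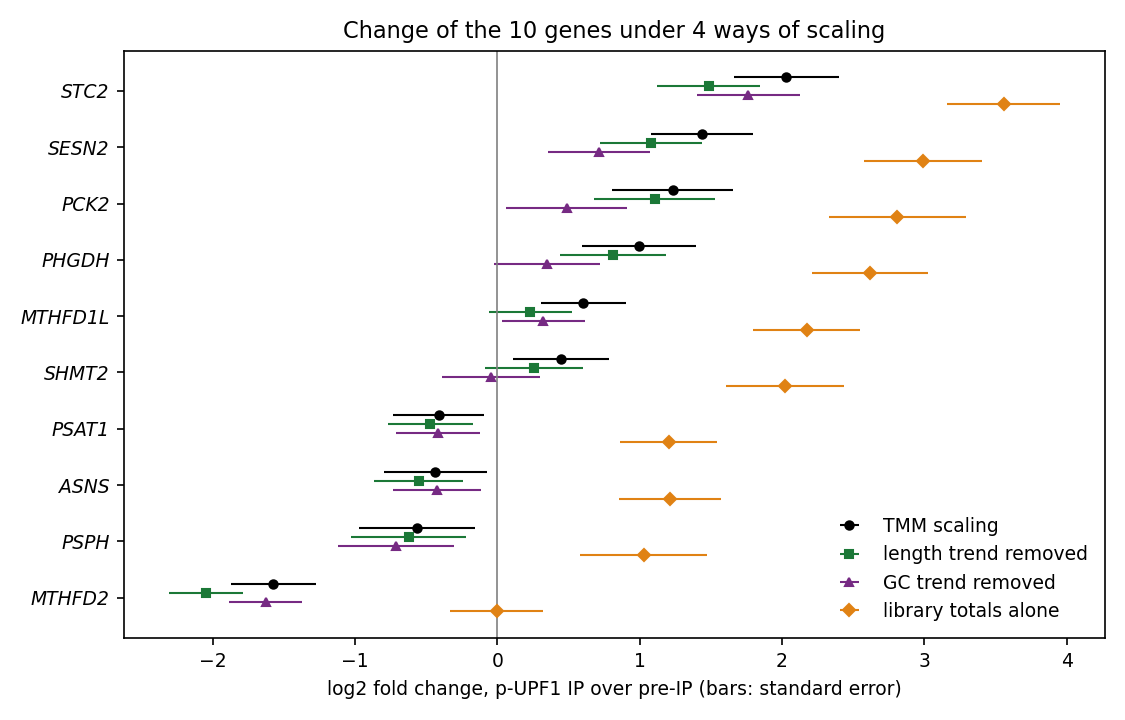
Log2 fold change (p-UPF1 IP over pre-IP, with standard error bars) of the 10 genes under TMM scaling, with the length trend removed, with the GC trend removed and with library totals alone. STC2 was positive and past the test in all 4, while MTHFD2 was at -1.57, -2.05 and -1.63 in the first 3 and at -0.0056 with library totals alone.

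**Figure D4:**
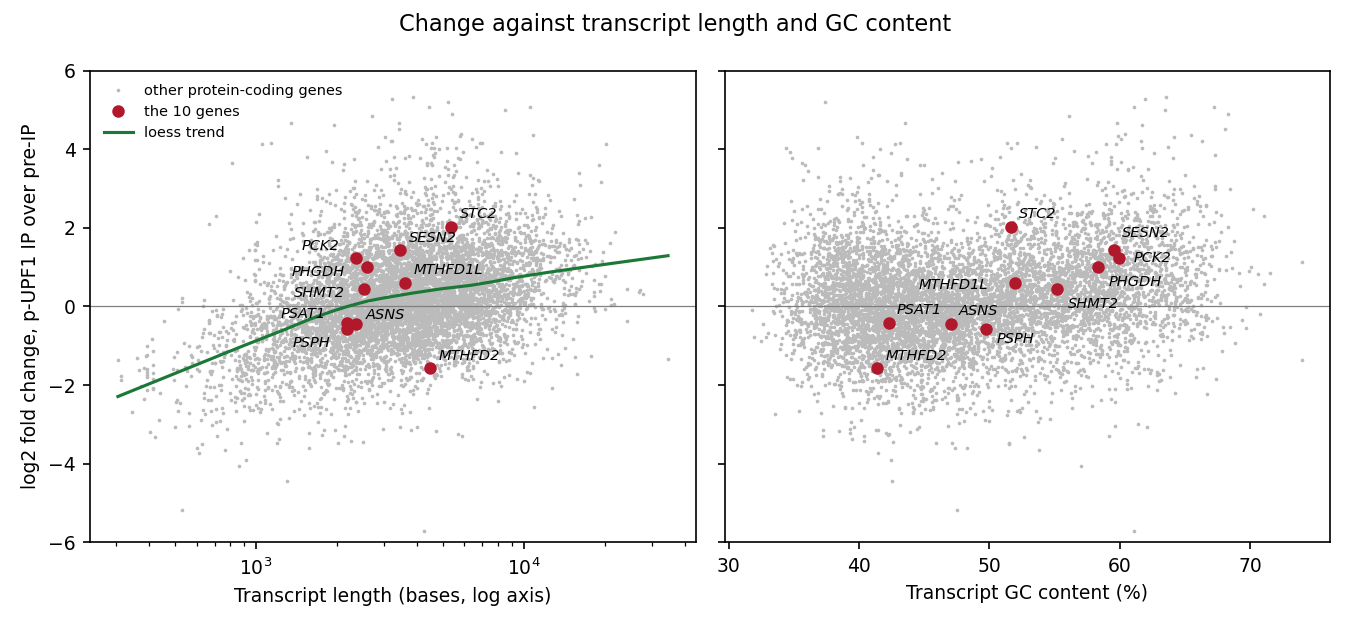
Log2 fold change (p-UPF1 IP over pre-IP) against transcript length (left, log axis, with the loess trend) and GC content (right) for 7679 tested protein-coding genes (grey; 31 of them lie beyond 6 on the vertical axis), with the 10 genes in red. STC2 lies above the length trend and MTHFD2 below it, and SESN2, PCK2 and PHGDH lie together at high GC content.

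ATF4 itself had 223, 274 and 273 CPM in p-UPF1 IP and 147, 186 and 107 CPM in pre-IP. The groups did not overlap, and its log2 fold change was 0.82 (SE 0.30, edgeR adjusted p = 0.0607), just outside the threshold. It passed the test in 5 of 17 alternatives, among them the fit without pre-IP replicate 4 (1.05, adjusted p = 0.0308). Its lowest log2 fold change among the 17 was 0.26, with the GC trend removed (edgeR adjusted p = 0.569). Of 24 other ATF4-activated genes tested of 29 listed, 6 rose and 0 fell, with a median of 0.56. Over all tested genes 8.81% were called higher and 10.9% lower, with a median of 0.10. The largest increases were ATF3, a stress transcription factor (2.10, SE 0.44, edgeR adjusted p = 0.00298), PYCR1, which makes proline (1.95, SE 0.41, adjusted p = 0.003), and SLC7A11, a cystine transporter (1.35, SE 0.32, adjusted p = 0.00631). After removal of the GC trend PYCR1 was no longer called (1.11, adjusted p = 0.0695), nor was SLC7A11 after removal of the length trend (0.52, adjusted p = 0.277), while ATF3 was called in 17 of 17 alternatives.

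Of 14 other serine, glycine and folate genes tested of 22 listed, 2 rose and 3 fell, beside 8.81% and 10.9% of all tested genes. Their median was 0.03, beside 0.10. ATIC, which closes the purine ring with a formyl-folate, rose by 1.46 (SE 0.35, edgeR adjusted p = 0.00787), a call lost without p-UPF1 IP replicate 9 (1.20, adjusted p = 0.0683). ALDH1L2, the mitochondrial formyl-folate dehydrogenase, rose by 0.94 (SE 0.33, adjusted p = 0.0498), a call that held in 7 of 17 alternatives. Among the genes that fell, the purine enzyme PAICS fell by 1.57 (SE 0.30, edgeR adjusted p = 0.00169) and the mitochondrial serine carrier SFXN1 fell by 0.97 (SE 0.29, adjusted p = 0.0249). With library totals alone PAICS (0.038) and SFXN1 (0.55) were not called, and both lay below the median of all tested genes on that scale, 1.63. SFXN1 also missed the threshold with no filter on low counts (adjusted p = 0.123) and in 4 of the 6 fits that leave out a library, with adjusted p up to 0.125 (p-UPF1 IP replicate 9 left out).

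Of 16 genes upstream of ATF4 tested, 1 rose and 2 fell, beside 8.81% and 10.9% of all tested genes. Their median was -0.12, beside 0.10. GCN1, the partner that activates the amino acid-sensing kinase GCN2, rose by 1.12 (SE 0.29, edgeR adjusted p = 0.0124), and lost its call with the length trend (0.35, adjusted p = 0.453) or the GC trend (0.57, adjusted p = 0.194) removed and when p-UPF1 IP replicate 3 was left out (1.02, adjusted p = 0.0756). EIF2S3, a subunit of eIF2, fell by 1.08 (SE 0.28, adjusted p = 0.0116), and PPP1R15B, which directs a phosphatase to eIF2, fell by 1.01 (SE 0.29, adjusted p = 0.0207). With library totals alone EIF2S3 (0.49) and PPP1R15B (0.53) were not called, and both lay below the median of 1.63 on that scale. With no filter on low counts they missed the threshold too (adjusted p = 0.0645 and 0.0944). EIF2S3 also missed it when p-UPF1 IP replicate 3 or 9 was left out (adjusted p = 0.0543 and 0.0583), and PPP1R15B in 4 of the 6 such fits, with adjusted p up to 0.108 (p-UPF1 IP replicate 3 left out). Of 9 aspartate, asparagine and glutamine genes tested, 1 rose and 0 fell, beside the same 8.81% and 10.9%, and their median was 0.31. The gene that rose was CAD, which starts pyrimidine synthesis (1.75, SE 0.35, edgeR adjusted p = 0.00207), and it was called in 17 of 17 alternatives.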

How the data were processed

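The deposited table holds raw read counts by gene symbol, with 1 column per library. Per the submitters' processing notes, cutadapt 1.15, STAR 2.5.2b and featureCounts (Subread 1.5.0p3) were used with hg19; not given in the sources used here: annotation, strand setting and handling of multiply matching reads. Hence, reads of genes overlapping on the other strand (SHMT2, MTHFD2, MTHFD1L, PCK2 and ASNS each have at least 1) or of pseudogenes (ASNS, PSAT1, PSPH and MTHFD2 have 4, 4, 1 and 7 annotated) cannot be told apart. Per the labels' protocols, RNA was depleted of ribosomal RNA, adapter-ligated at both ends and PCR-amplified, with no molecular identifiers described.

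Counts were tested with edgeR 4.0.16 in R 4.3.3 (quasi-likelihood F-test, filterByExpr with a minimum count of 10, TMM, Benjamini-Hochberg at 0.05 over 8070 genes), after a check on simulated data. That check recovered 10.3% of 58 genes set to change 2-fold, 72.1% of 61 set to 4-fold and 91.5% of 71 set to 8-fold. Of the 121 genes called there, 6 had no change set. SE is the log2 fold change divided by the square root of F. CPM use TMM-scaled library sizes. Paralogue ratios added 0.5 counts to each gene. Alternatives used DESeq2 1.42.0, limma 3.58.1 (voom), other scalings and filters, small structured RNAs left out, loess trends (span 0.5) on transcript length or GC removed through offsets, and each library left out. Transcript features are from GENCODE release 29 by symbol (59 of the tested symbols had no type), promoters from RefSeq. Lengths and GC content are of 1 protein-coding transcript per symbol. It was picked by the tag for principal isoforms, then the longest coding sequence, then the longest transcript. Which isoforms these cells express was not tested. The 10 genes and all lists were chosen with earlier results of these data known. Named beside them were ATF4, the paralogues, and the 3 largest called increases and decreases of each list. Of these, 1 gene is not reported here.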

Additional observations from a re-analysis of the deposited data

How the results depend on the processing

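Over 17 alternatives, the 10 genes gave 170 log2 fold changes, of which 145 kept direction and side of the threshold. Of the 1591 genes called, 4 were among the 10; with library totals alone 5030 and 8 were called, with the length trend removed 910 and 2, and with the GC trend removed 1152 and 2. Leaving out 1 library gave 791 to 1628 genes called (791, 950 and 908 without p-UPF1 IP replicate 3, 6 or 9) and 3 to 5 of the 10. The cause of these shifts was not tested; the trend fits also tested fewer genes.

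Library totals alone moved the median of all tested genes to 1.63, against 0.10 with TMM. On that scale ASNS (1.21), PSAT1 (1.20), PSPH (1.03), PAICS (0.038), SFXN1 (0.55), EIF2S3 (0.49), PPP1R15B (0.53) and SHMT1 (1.52) were positive but below the median. With TMM these genes were negative and also below the median. Direction turned for SESN3 (-0.48) and ASNSD1 (-0.039) with the length trend removed, and for SHMT2 (-0.043) and ASNSD1 (-0.048) with the GC trend removed. SHMT1, at -0.05 in the TMM fit, was at 0.12 with no filter on low counts, and at 0.0028, 0.15, 0.18 and 0.016 without p-UPF1 IP replicate 3 or 6 or pre-IP replicate 1 or 4. Without pre-IP replicate 4, ASNS was at 0.056, ASNSD1 at -0.26 and the ratio of ASNS to ASNSD1 at 0.33. Without pre-IP replicate 1, MTHFD1L to MTHFD1 was at 0.14 and SESN2 to SESN1 at -0.20, and without p-UPF1 IP replicate 3 MTHFD1L to MTHFD1 was at 0.014. No paired analysis was possible because the groups share no replicate number, and no label ties a pre-IP library to a p-UPF1 IP library.

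Over the fits that leave out 1 library, ASNS ranged over -0.61 to 0.056, SHMT1 over -0.30 to 0.18, MTHFD1L to MTHFD1 over -0.13 to 0.14, SESN2 to SESN1 over -0.20 to 1.01 and ASNS to ASNSD1 over -2.21 to 0.33. The pre-IP counts were fewest for PCK2 (33), SESN2 (46), STC2 (71) and PSPH (71), with SE of 0.42, 0.36, 0.37 and 0.41, beside 0.36 for ASNS with 715 counts. How far depth limits these values was not tested.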
